A study of Mus musculus with 30 samples.

Results

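Small RNA libraries from mouse cortex were searched for fragments of 5 long non-coding RNAs (lncRNAs) that are known for their nuclear location or their abundance in neurons: Malat1, Neat1, Meg3, Miat and Snhg11. A read was counted for a gene when it was 20 to 45 nt long and its whole sequence matched, in the sense direction and without a mismatch, a GENCODE vM21 transcript of that gene and no transcript of another gene. The 5 genes are 5 of 34687 genes that had at least 1 such read in the series. Malat1 reads were divided further, because Malat1 carries a tRNA-like element at its 3' end, so that 6 features were followed: the Malat1 body, the Malat1 tRNA-like end and the other 4 genes.

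The series held 30 libraries in 4 groups. WT mice and their 5XFAD littermates (called AD here) were 6 months old, of both sexes and on the C57BL6/J background, and the tissue was prefrontal cortex. 5XFAD mice are a model of Alzheimer's disease and are hemizygous for transgenes that the Thy1 promoter drives in neurons; the WT mice carry no transgene. RNAs of 15 to 50 nt were cut from a gel, and the libraries were made either directly (traditional-seq, 7 WT and 7 AD) or after treatment with T4PNK and then AlkB (PANDORA-seq, 8 WT and 8 AD). T4PNK adds 5' phosphates and removes 3' phosphates, and AlkB takes off methyl groups that stop reverse transcription, so that fragments closed to ordinary ligation or copying can enter a PANDORA-seq library. Within a protocol the libraries came from different mice, and which PANDORA-seq and traditional-seq libraries share a mouse is not given in the sources used here.

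Malat1 is a long, largely unspliced transcript of nuclear speckles, where splicing factors gather. In textbook accounts RNase P cuts it just before a tRNA-like element, RNase Z releases the element, and the small product, called mascRNA, moves to the cytoplasm. Neat1 is the scaffold of paraspeckles, Meg3 is a maternally expressed transcript of the imprinted Dlk1-Dio3 region, Miat (also called Gomafu) is a neuronal nuclear RNA, and Snhg11 is a host gene of small nucleolar RNAs with strong expression in neurons.

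PANDORA-seq libraries held 54926347 to 105876141 reads of 15 to 45 nt, and traditional-seq libraries held 9370669 to 17053412 reads of 15 to 42 nt. Reads that matched a single gene made up 10.7% to 26.8% of PANDORA-seq reads and 24.3% to 35.4% of traditional-seq reads. All 8 markers of cortical neurons were detected in each of the 4 groups. Their summed level ran from 307.7 to 1780 RPM (reads for every 1000000 reads of the library) in PANDORA-seq WT libraries and from 177.1 to 1458 RPM in PANDORA-seq AD libraries. The liver transcripts Alb and Apoa2 summed to between 41.8 and 395.3 RPM in PANDORA-seq libraries and to at most 8.22 RPM in traditional-seq libraries, and their part in the results was not tested.

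The sequence of the tRNA-like end of Malat1 is given before its values, because the ends of the fragments are read against it. A search of the reference transcripts of the 5 genes for a T loop, a T stem of 5 pairs and an acceptor stem of 7 pairs found 1 element, in Malat1 (gene ENSMUSG00000092341.3, GRCm38 chr19:5795690-5802672, minus strand, lincRNA). It occupies bases 6692 to 6749 of the 6983 nt transcript, in its only exon, at chr19:5795924-5795981 on the minus strand, and 234 transcribed bases follow it. The first line has the bases of the acceptor and T stems in capitals; in the next 2 lines the capitals mark the most read fragment of the element in each protocol.
Stems: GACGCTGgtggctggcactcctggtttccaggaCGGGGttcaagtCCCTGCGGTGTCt
PANDORA-seq: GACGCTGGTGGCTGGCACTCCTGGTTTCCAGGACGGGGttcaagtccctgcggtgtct
Traditional-seq: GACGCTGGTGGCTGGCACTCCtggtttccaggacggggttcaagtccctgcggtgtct
The 38 nt PANDORA-seq fragment spans bases 1 to 38 and stops at the last base of the 5' strand of the T stem, directly before the T loop at bases 39 to 45. The 21 nt traditional-seq fragment begins at the same base.

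Reads of the tRNA-like end were few in both protocols and began at a nearly fixed base. The element is 58 nt long, longer than the RNAs cut from the gel (15 to 50 nt) and than any read. These reads are therefore fragments of it, and the level of the whole element was not measured. PANDORA-seq gave 54 to 231 such reads in a library and traditional-seq gave 2 to 31. In PANDORA-seq, 1422 of 1961 reads (72.5%) began at base 1 of the element, and the share in single libraries ran from 56.2% over a median of 74.0% to 81.9%. In traditional-seq, 181 of 229 reads (79.0%) began there, with 40% to 100% in single libraries. A further 279 PANDORA-seq reads (14.2%) began at base 6, against 7 (3.06%) in traditional-seq. Nearly all of these exactly matched reads came from the 5' side of the element, with the centre of the read in the first 50% of its length for 96.0% of PANDORA-seq reads and 100% of traditional-seq reads. Reads that ran through base 58 and went on with added C (44) or CC (42) in PANDORA-seq, or CCA (2) in traditional-seq, were not counted here. They did not match the transcript exactly, and they lie on the 3' side.

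The 3' ends of these reads differed between the protocols. In traditional-seq 57.2% of the pooled reads ended at base 21, with 0% to 90.9% in single libraries, and none of the 229 ended at base 37 or 38. In PANDORA-seq the ends were spread more widely, with 15.7% of the pooled reads at base 38, 12.8% at base 21, 11.01% at base 35, 10.4% at base 22 and 7.65% at base 37, so that 458 reads (23.4%) ended at base 37 or 38. Mean read length was 29.0 nt in PANDORA-seq and 22.5 nt in traditional-seq. Only 32 PANDORA-seq reads, and no traditional-seq read, ended without added bases at base 58, the last base of the element.

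**Figure D1:**
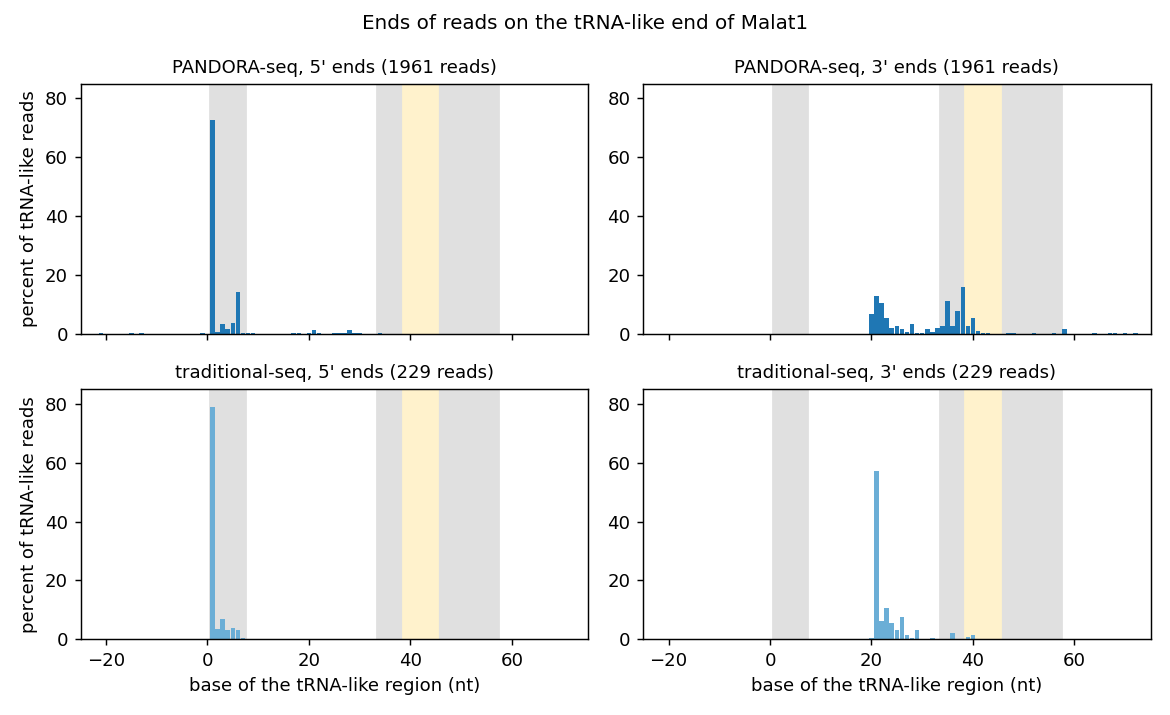
Positions of the 5' ends (left) and 3' ends (right) of reads on the tRNA-like end of Malat1, as percent of the reads of that element pooled over the 16 PANDORA-seq (top) or 14 traditional-seq (bottom) libraries, against the base of the element in nt. Grey bands mark the paired stems and the yellow band the T loop. Starts pile up at base 1 in both protocols (72.5% and 79.0%), while ends lie at base 21 in traditional-seq (57.2%) and over bases 20 to 40 in PANDORA-seq, with 23.4% at bases 37 and 38.

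The bond before base 1, where RNase P is known to cut, was almost never covered. Summed over the 16 PANDORA-seq libraries, 8 reads ran across it, whereas the median bond of the Malat1 transcript was crossed by 1207.5 reads. Only 3.09% of the bonds were crossed by as few. In traditional-seq no read crossed it, with a median of 10 reads over all bonds, a depth at which 15.4% of the bonds had none. The bond after the element was crossed by 8 PANDORA-seq reads and 0 traditional-seq reads. No read in either protocol ended at the last base before the element, and only 3 PANDORA-seq reads ended in the last 10 bases before it. The 234 nt downstream of the element, 3.35% of the transcript, held 305 of the PANDORA-seq Malat1 reads (0.0361%) and 2 of the traditional-seq reads (0.0152%). The median bond of this stretch was crossed by 44 PANDORA-seq reads, so that coverage there was far below the 1207.5 of the whole transcript. Whether cleavage accounts for the few reads across the 2 edges of the element was not tested. RNase Z cleavage is followed in cells by addition of CCA, and reads that ended with the last base of the element plus added bases were also sought. The added bases were C in 44 PANDORA-seq reads and CC in 42, and CCA in 2 traditional-seq reads, both from a single library.

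The tRNA-like end took a smaller share of Malat1 reads in PANDORA-seq than in traditional-seq. It made up 0.339% ± 0.240 of Malat1 reads in PANDORA-seq (SD, n = 16; 0.0522% to 0.844%) and 2.03% ± 1.24 in traditional-seq (SD, n = 14; 0.432% to 5.19%). The difference of -1.69 percentage points had a two-sided permutation p of 1e-05, the smallest that 100000 shuffles can give. The ranges overlapped, since the lowest traditional-seq library lay below the highest PANDORA-seq libraries. AD and WT libraries did not differ beyond their spread, with 0.310% ± 0.258 in WT and 0.368% ± 0.235 in AD mice by PANDORA-seq (exact permutation p = 0.643, n = 8 and 8) and 2.06% ± 1.48 in WT and 2.01% ± 1.06 in AD mice by traditional-seq (exact permutation p = 0.96, n = 7 and 7).

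**Figure D2:**
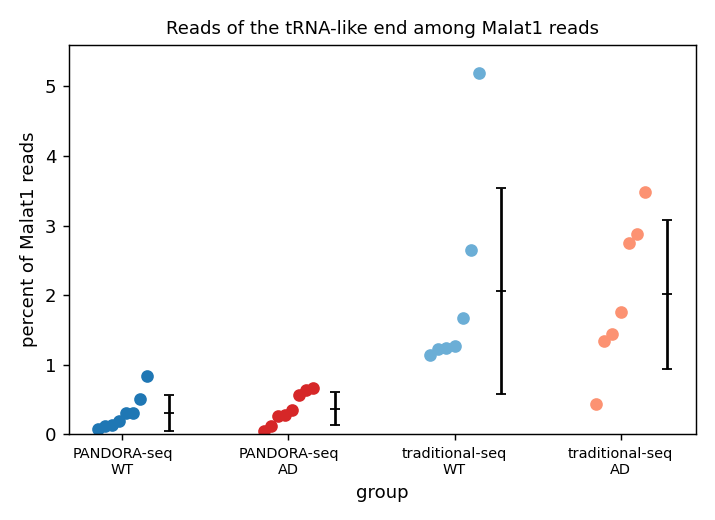
Reads of the tRNA-like end as percent of all Malat1 reads, with 1 point for each library in the 4 groups and the mean with its SD in black beside them. The 16 PANDORA-seq libraries lie between 0.0522% and 0.844% and the 14 traditional-seq libraries between 0.432% and 5.19%.

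On the RPM scale, the levels behind this share differed between the protocols for the Malat1 body and not beyond the spread for the tRNA-like end. This depended on the scaling. With libraries scaled by TMM, the tRNA-like end had a log2 difference of -1.96 between the protocols and the body 0.70 (edgeR, adjusted p = 1.66e-05 and 0.0138). The share itself does not depend on the scaling. Per kb of RNA, the element was at 26.2 ± 12.1 RPM in PANDORA-seq and 23.2 ± 11.4 RPM in traditional-seq, while the body was at 92.2 ± 63.3 RPM per kb in PANDORA-seq and 11.05 ± 6.37 RPM per kb in traditional-seq. The body was thus above the element in 15 of 16 PANDORA-seq libraries and below it in 13 of 14 traditional-seq libraries.

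The Malat1 body was the most abundant of the 6 features. In PANDORA-seq it was at 312.7 RPM in the lowest WT library, 403.6 RPM at the median and 1190 RPM in the highest, and at 196.9, 516.9 and 1904 RPM in AD libraries. In traditional-seq it was at 18.9, 69.4 and 174.8 RPM in WT libraries and at 35.4, 74.5 and 148.4 RPM in AD libraries. No traditional-seq library reached the lowest PANDORA-seq library, as for 5422 of the 14465 genes tested (37.5%). Within each protocol the WT and AD libraries overlapped.

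Meg3 (ENSMUSG00000021268.17, chr12:109541001-109571726, plus strand, lincRNA) was next in reads. Its lowest, median and highest levels in PANDORA-seq were 79.8, 124.0 and 363.9 RPM in WT libraries and 66.2, 121.8 and 480.2 RPM in AD libraries. In traditional-seq they were 10.5, 31.5 and 106.7 RPM in WT and 12.9, 38.7 and 67.4 RPM in AD libraries. The protocols overlapped for Meg3, as they also did for Snhg11 and Miat.

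Snhg11 (ENSMUSG00000044349.15, chr2:158375638-158386145, plus strand, annotated there as protein_coding) was at 24.4, 46.9 and 115.9 RPM in PANDORA-seq WT libraries and 14.04, 35.97 and 124.0 RPM in AD libraries. In traditional-seq it was at 4.16, 10.4 and 49.3 RPM in WT and 2.80, 12.2 and 32.9 RPM in AD libraries. WT and AD libraries overlapped in both protocols.

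Neat1 (ENSMUSG00000092274.3, chr19:5824708-5845478, minus strand, lincRNA) showed the widest gap between the protocols. It was at 17.2, 20.8 and 57.4 RPM in PANDORA-seq WT libraries and 10.7, 32.2 and 62.7 RPM in AD libraries, but at 0.896, 1.69 and 7.59 RPM in traditional-seq WT and 1.17, 1.87 and 5.06 RPM in AD libraries. The lowest PANDORA-seq library was above the highest traditional-seq library, as for 37.5% of the 14465 genes tested.

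Miat (ENSMUSG00000097767.8, chr5:112213228-112229395, minus strand, lincRNA) was the least read gene in PANDORA-seq, at 6.65, 15.8 and 29.9 RPM in WT and 2.38, 9.15 and 28.3 RPM in AD libraries. In traditional-seq it was at 0.414, 2.39 and 9.69 RPM in WT and 1.06, 3.26 and 7.55 RPM in AD libraries. The tRNA-like end itself was at 0.680, 1.19 and 2.66 RPM in PANDORA-seq WT libraries, 0.907, 1.62 and 2.81 RPM in AD libraries, 0.462, 1.18 and 2.19 RPM in traditional-seq WT libraries and 0.193, 1.29 and 2.66 RPM in AD libraries, so that all 4 groups shared a range.

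Per kb of exonic sequence, PANDORA-seq levels ordered the genes as Malat1 body, Malat1 tRNA-like end, Meg3 (9.58 ± 6.63 RPM per kb), Snhg11 (6.13 ± 4.08), Miat (1.53 ± 0.942) and Neat1 (1.47 ± 0.7105). Meg3 was above Snhg11, and Snhg11 above Miat, in all 16 libraries, whereas Miat was above Neat1 in only 9 of 16. The order of these last genes holds for reads of a single gene; reads shared with other genes were at 63.01 RPM for Neat1, more than its own 30.4 RPM, and at 2.09 RPM for Miat. In traditional-seq Meg3 (2.23 ± 1.57 RPM per kb) was above Snhg11 (2.04 ± 1.70) in 8 of 14 libraries, and Miat (0.417 ± 0.311) was above Neat1 (0.119 ± 0.0906) in all 14.

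**Figure D3:**
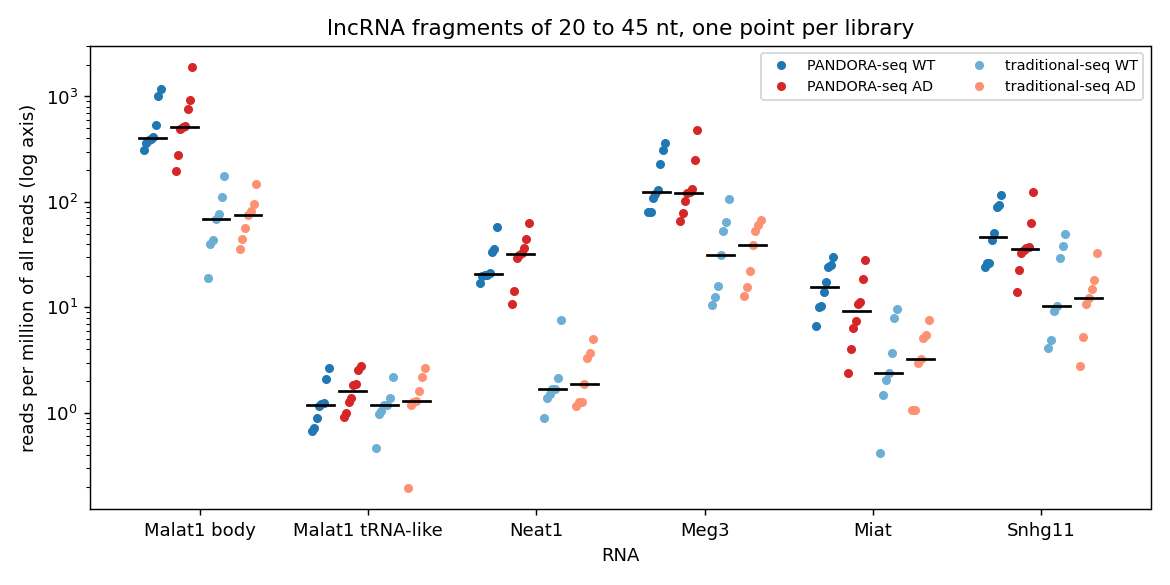
Level of each feature in RPM of all reads, on a log axis, with 1 point for each library in the 4 groups and a bar at the median. The Malat1 body and Neat1 are higher in every PANDORA-seq library than in every traditional-seq library, as are 37.5% of the 14465 genes tested. The tRNA-like end of Malat1 shares 1 range (0.193 to 2.81 RPM) in both protocols.

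Whether T4PNK and AlkB treatment brought out these fragments was asked by comparing the protocols. On the RPM scale 5 of the 6 features were higher in PANDORA-seq, by 13.4-fold for Neat1, 8.19-fold for the Malat1 body, 4.60-fold for Meg3, 4.05-fold for Miat and 3.49-fold for Snhg11 (two-sided permutation test of log2(RPM + 0.01), p adjusted over 14465 genes between 1.17e-05 and 0.000139). By the same rule, a fold over 2 with an adjusted p below 0.05, 96.3% of all genes tested were higher and 2.12% lower in PANDORA-seq, with a median log2 difference of 3.19. The difference was therefore shared with nearly every gene tested. A gene could enter this set through its PANDORA-seq reads alone. Tested by itself, PANDORA-seq kept 16115 genes and traditional-seq 3750. The share and median of all genes, also where lists are set beside them below, are thus partly fixed by this filter. The tRNA-like end was not among the features called higher, at 1.52 RPM in PANDORA-seq and 1.35 RPM in traditional-seq (log2 difference 0.25, adjusted permutation p = 0.407).

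The direction depended on the scaling. When libraries were scaled to each other by TMM, so that the median gene lay at a log2 difference of 0.29, edgeR's quasi-likelihood test called 15.2% of 14465 genes higher and 6.32% lower in PANDORA-seq. On that scale Neat1 was also higher (log2 difference 1.53, adjusted p = 0.000196), the Malat1 body had a log2 difference of 0.70 (adjusted p = 0.0138, under the 2-fold limit), and the tRNA-like end was lower (log2 difference -1.96, adjusted p = 1.66e-05). Meg3 (-0.24, adjusted p = 0.394), Miat (-0.55, adjusted p = 0.0435) and Snhg11 (-0.73, adjusted p = 0.0131) turned from higher on the RPM scale to values below 0, those of Miat and Snhg11 under the 2-fold limit. With the 14 file codes that both protocols share as a block, the Malat1 body had 0.41 (adjusted p = 0.162).

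The protocol difference of Meg3 changed with the reads that it shares with a microRNA gene. Meg3 has 11 annotated transcripts. In the one that the most reads matched (14548 nt), the last exon contains Mir770, and reads that match both genes were left out of the values above. They numbered 61265 in PANDORA-seq, against 22838 in traditional-seq. The 2 arms of the microRNA, as RefSeq gives them on GRCm38.p6, are shown with the seed (bases 2 to 8) in capitals.
miR-770-5p: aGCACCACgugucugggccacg
miR-770-3p: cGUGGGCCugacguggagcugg
The 3' arm lies at chr12:109563744-109563765 on the plus strand, and 95.3% of the shared traditional-seq reads and 83.7% of the shared PANDORA-seq reads began within 2 nt of its first base. This arm was at 129.6 ± 46.7 RPM in traditional-seq (SD, n = 14) and 37.8 ± 23.3 RPM in PANDORA-seq (SD, n = 16), against 40.3 and 173.3 RPM for the rest of Meg3. The 5' arm (chr12:109563710-109563731) was at 6.59 ± 4.43 RPM in traditional-seq and 5.99 ± 4.42 RPM in PANDORA-seq. With shared reads counted for each gene, the log2 difference of Meg3 between the protocols fell to 0.27 (adjusted permutation p = 0.235), and the other 4 genes kept a log2 difference of at least 1.74.

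The other members also shared reads with further genes. Of the reads that matched Neat1 anywhere, 67.6% in PANDORA-seq matched another gene too, and 97.5% of those matched over 10 genes. Snhg11 shared 37.8% of its PANDORA-seq reads and Malat1 1.96%. Miat shared 12.8%, most of them with Gm27998. Reads in the antisense direction numbered 0 to 15 for any member in a library.

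The positions of the fragments along the transcripts differed between the protocols. The most used single 3' end in traditional-seq took 36.8% ± 18.6 of Snhg11 reads (SD, n = 14; 9.52% to 64.2%), 14.4% ± 7.42 of Meg3 reads (0.658% to 26.6%) and 9.41% ± 2.14 of Malat1 body reads (5.82% to 12.05%), and each of these ends was found in all 14 libraries. In PANDORA-seq the same ends took 0.00295%, 0% and 0.167% of the reads of the gene. Reads that stopped at these bases had 23 different 5' ends in Snhg11, 21 in Meg3 and 19 in Malat1, and ran from 20 to 42 nt. The sequences that follow run 5' to 3' along the RNA, with the last 20 bases before the shared 3' end in capitals.
Malat1, chr19:5798718-5798767, minus strand: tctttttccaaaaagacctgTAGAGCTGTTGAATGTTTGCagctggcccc
Meg3, chr12:109559365-109559414, plus strand: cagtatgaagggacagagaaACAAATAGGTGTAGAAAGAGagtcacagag
Snhg11, chr2:158385750-158385779, plus strand: tagcttaatgCAGAACTCTTTAGAAAGCTC
The Malat1 end lies at base 3945 of its transcript, the Meg3 end at base 2226, in exon 5 of 5, and the Snhg11 end at base 5498, also in exon 5 of 5. The next 2 bases of the transcript were AG at all 3 of these ends. They were not AG at the most used traditional-seq 3' ends of Miat (AC; 3.64% of its reads, 10 of 14 libraries) and Neat1 (TT; 3.503%, 2 of 14 libraries).

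The dinucleotide AG was also counted directly after all 3' ends of traditional-seq reads of these 3 genes. It followed 20.04% ± 3.66 of Malat1 body reads, 30.9% ± 12.3 of Meg3 reads and 41.7% ± 18.2 of Snhg11 reads, whereas AG makes up 9.31%, 7.70% and 7.29% of the dinucleotides of the transcripts. Without the most used end the values were 11.7% ± 4.17, 19.7% ± 8.56 and 7.97% ± 6.40, so that Meg3 alone stayed above its transcript by more than 1 SD, and the excess in Malat1 and Snhg11 came mostly from the single end. In PANDORA-seq AG followed 1.74% ± 0.851 of Malat1 body reads, 1.52% ± 0.789 of Meg3 reads and 1.58% ± 1.18 of Snhg11 reads. Neat1 and Miat had too few traditional-seq reads (12 to 90 and 6 to 115 in a library) for a steady value, with SDs as large as or close to their means of 9.88% and 8.63%.

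No single end dominated in PANDORA-seq. The most used 5' end took 2.06% ± 1.53 of Malat1 body reads, 1.57% ± 1.03 of Meg3 reads, 0.915% ± 0.345 of Neat1 reads, 1.34% ± 1.24 of Miat reads and 3.72% ± 2.45 of Snhg11 reads (SD, n = 16). The most read PANDORA-seq fragment of 4 of the genes is shown, none of them read in traditional-seq, whose reads end at 42 nt and so could not hold the Malat1 fragment; that of Snhg11, 40 nt at chr2:158384179-158384218 and 0.785 RPM, was not read in traditional-seq either.
Malat1, chr19:5796774-5796816, minus strand: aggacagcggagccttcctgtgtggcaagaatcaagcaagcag
Meg3, chr12:109566115-109566151, plus strand: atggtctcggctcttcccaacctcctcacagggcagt
Neat1, chr19:5838667-5838695, minus strand: aaaggtgcctgctgagctgtttttctttg
Miat, chr5:112213308-112213343, minus strand: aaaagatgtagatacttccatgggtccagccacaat
The Malat1 fragment, 43 nt from base 5857, was at 12.9 ± 21.04 RPM (SD, n = 16) and took 2.03% of the Malat1 body. The Meg3 fragment was at 2.39 ± 3.03 RPM, the Miat fragment at 0.213 ± 0.272 RPM and the Neat1 fragment at 0.213 ± 0.195 RPM. The 4 fragments shown begin with A.

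A feature that the counting rule did not use was the bond at each end of a read. Whether a read end marks a cut in the RNA or arose in library preparation was not tested. In PANDORA-seq the bond at the 5' end lay between a pyrimidine and A (C or U before, A as the first base of the read) in 39.2% ± 11.8 of Malat1 body reads, 46.9% ± 5.84 of Neat1 reads, 38.9% ± 11.8 of Meg3 reads, 35.8% ± 9.98 of Miat reads and 46.6% ± 12.6 of Snhg11 reads (SD, n = 16). Such bonds make up 11.8%, 11.6%, 10.7%, 10.4% and 11.9% of the 5 transcripts. Bonds between U and A carried most of the excess, at 30.4% of Malat1 5' ends for 5.97% of its bonds, while bonds between C and A took 8.78% for 5.86%. In traditional-seq the 5' share was 13.4% ± 1.9998 for Malat1, 14.9% ± 7.54 for Neat1, 13.1% ± 3.19 for Meg3, 11.8% ± 8.33 for Miat and 20.7% ± 6.53 for Snhg11. For Neat1 all 16 PANDORA-seq libraries were above every traditional-seq library, as were 15 for Malat1, 15 for Meg3, 14 for Miat and 11 for Snhg11.

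At the 3' end the order of the protocols was the opposite. A bond between a pyrimidine and A followed 5.20% ± 3.02 of PANDORA-seq Malat1 body reads, below the 11.8% of the transcript, and 27.1% ± 1.82 of traditional-seq reads, above it. The other 4 genes had 3.76% to 4.24% in PANDORA-seq, and in traditional-seq 17.7% ± 9.35 (Neat1), 17.4% ± 3.94 (Meg3), 21.9% ± 12.2 (Miat) and 47.8% ± 15.3 (Snhg11). All 16 PANDORA-seq libraries were below every traditional-seq library for Malat1, Meg3, Miat and Snhg11, and for Neat1 the ranges overlapped. Without the most used end the traditional-seq share was 19.5% ± 1.75 in Malat1 and 17.4% ± 4.79 in Snhg11. Unlike at 5' ends, C-A bonds made up most of it, at 20.5% for 5.86% of Malat1 bonds and 44.0% for 6.63% of Snhg11 bonds. U-A bonds took 6.65% for 5.97% and 3.82% for 5.27%, but in Meg3 6.34% for 3.90%. The low PANDORA-seq values were not particular to pyrimidine-A bonds. Any A followed 6.75% to 8.60% of reads of the 5 genes, where A makes up 21.7% to 28.6% of the transcripts. In PANDORA-seq the mean share at 5' ends was higher in AD than in WT libraries for all 5 genes, by less than the SD within a genotype for each, for example 35.6% ± 8.49 in WT and 42.8% ± 14.001 in AD libraries for Malat1; this difference was not tested. These shares were chosen after the data were seen and were not computed for other genes, so that they are given as a description.

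**Figure D4:**
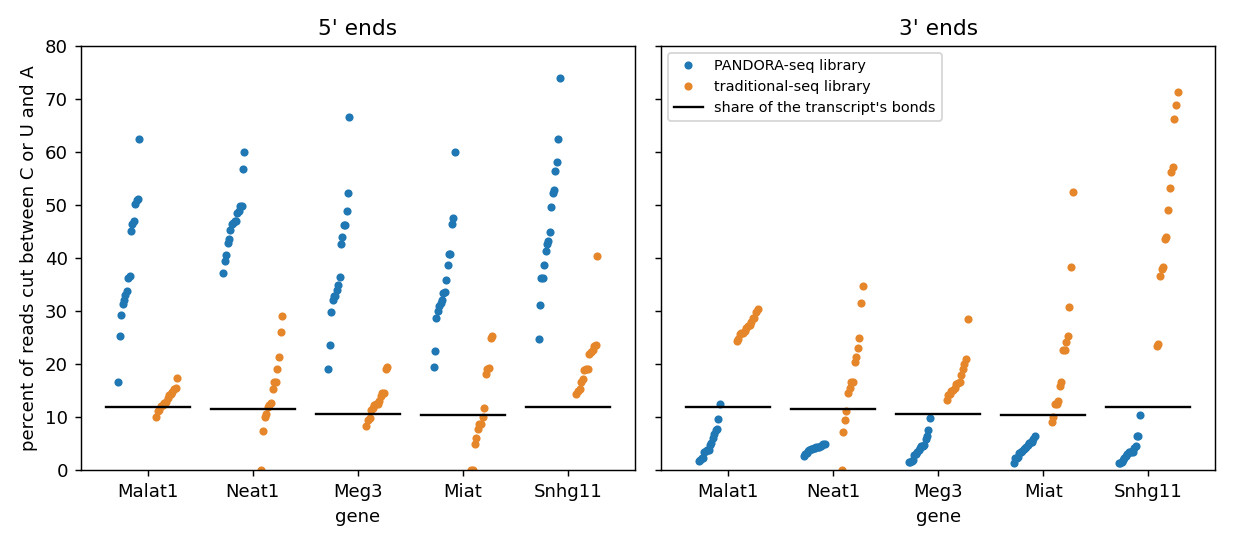
Percent of the reads of a gene whose 5' end (left) or 3' end (right) lies at a bond between C or U and A, with 1 point for each library, PANDORA-seq in blue and traditional-seq in orange, and a black line at the share of such bonds in the transcript (10.4% to 11.9%). PANDORA-seq points lie above the line at 5' ends and, for nearly all libraries, below it at 3' ends, while traditional-seq points of Malat1, Meg3 and Snhg11 lie above it at 3' ends.

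Fragments were longer in PANDORA-seq, with mean lengths between 33.6 nt (Neat1) and 34.7 nt (Snhg11) for the 5 genes, against 26.2 nt (Miat) to 26.9 nt (Snhg11) in traditional-seq. They also came from different stretches of the transcripts. When each transcript was divided into 10 equal stretches, Malat1 reads were most frequent in stretch 7 in PANDORA-seq (20.5% ± 1.32) and in stretch 6 in traditional-seq (20.9% ± 3.504, against 6.99% ± 1.72 in PANDORA-seq). Stretch 2 of Meg3 held 14.2% ± 2.73 of PANDORA-seq reads and 32.5% ± 6.81 of traditional-seq reads, and stretch 10 of Snhg11 held 13.4% ± 4.54 and 42.05% ± 19.1. These stretches contain the fixed 3' ends given above. Neat1 reads were most frequent in stretch 1 in both protocols (16.3% ± 4.43 and 20.9% ± 13.5), the 5' part that its short and long isoforms share.

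**Figure D5:**
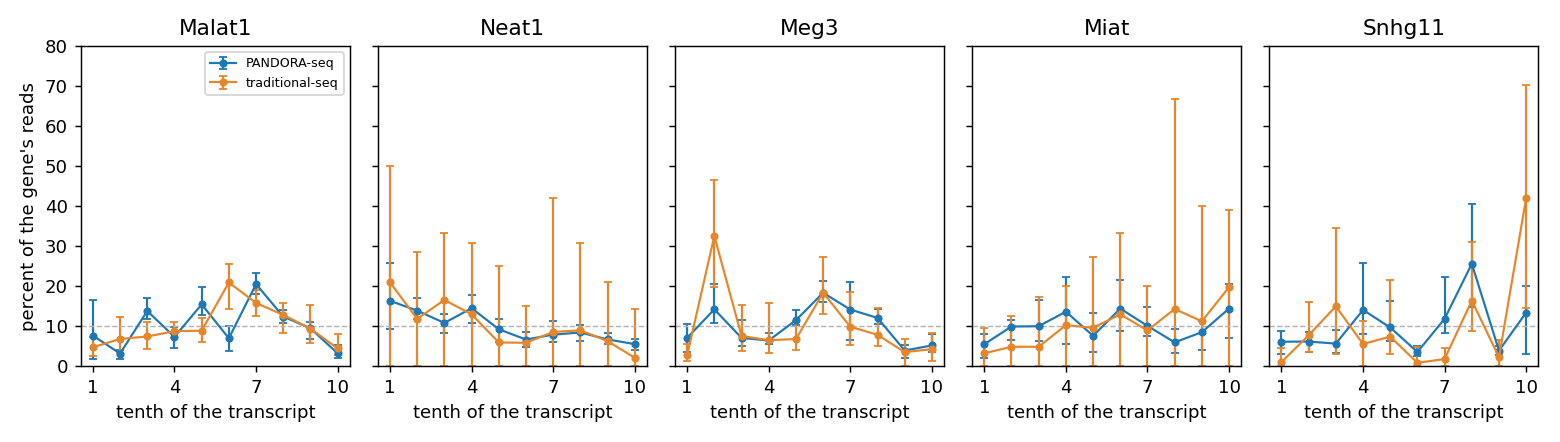
Percent of the reads of each gene in 10 equal stretches of its reference transcript from 5' to 3', as the mean over 16 PANDORA-seq (blue) and 14 traditional-seq (orange) libraries, with bars from the lowest to the highest library and a dashed line at an even spread. Traditional-seq rises in stretch 2 of Meg3 (32.5%) and stretch 10 of Snhg11 (42.05%), and its bars are wide for Neat1 and Miat.

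Whether the fragments differed between AD and WT mice was the other question of the design. In PANDORA-seq none of the 6 features passed edgeR's quasi-likelihood test with a fold over 2, a rule that called 0.00621% of 16115 genes lower and 0% higher. None had an unadjusted p under 0.05, a limit that 10.1% of the genes passed, and DESeq2 also called 0. The log2 fold change, AD over WT, was 0.58 ± 0.35 (SE) for the Malat1 body (adjusted p = 0.533), 0.54 ± 0.51 for the tRNA-like end (adjusted p = 0.662), 0.38 ± 0.48 for Neat1 (adjusted p = 0.749) and -0.31 ± 0.27 for Miat (adjusted p = 0.636). Meg3 had 0.29 ± 0.29 by TMM but a log2 difference of -0.14 on the RPM scale, and Snhg11 had 0.03 ± 0.29 but -0.40 on the RPM scale (adjusted p by TMM 0.682 and 0.972). On the RPM scale the log2 difference was 0.13 for the Malat1 body, 0.15 for Neat1 and -0.84 for Miat (exact permutation p = 0.767, 0.683 and 0.108, n = 8 and 8), and in reads of 43 to 45 nt scaled by TMM Miat turned to 0.27 ± 0.32 (edgeR, adjusted p = 0.614). Markers of cortical neurons summed to a median of 964.6 RPM in WT and 505.1 RPM in AD libraries, and the 2 striatal markers to 7.23 and 1.87 RPM. Astrocyte markers were also lower in AD (238.7 and 157.4 RPM), and those of choroid plexus were level (12.7 and 12.6 RPM). Markers of oligodendrocytes (111.7 and 124.6 RPM), microglia (7.42 and 10.7 RPM) and cerebellum (0.189 and 0.465 RPM) were higher in AD. In traditional-seq the neuronal median was 114.9 RPM in WT and 139.4 RPM in AD libraries. The part of these markers in the values on the RPM scale was not tested. A single AD library, replicate 7, was far above the others in Malat1, and without it the log2 fold change of the Malat1 body was 0.29 ± 0.31, that of Meg3 -0.03 ± 0.22 and that of Snhg11 -0.25 ± 0.23. The value of Neat1 was 0.93 ± 0.40 without WT replicate 8 (adjusted p = 0.299), 0.14 ± 0.48 without AD replicate 6 and 0.12 ± 0.22 with shared reads counted, and that of the tRNA-like end was 0.88 ± 0.50 without WT replicate 3. Miat had -0.17 ± 0.21 without AD replicate 1. In these bulk samples fewer cells of a type and less RNA per cell cannot be told apart.

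Traditional-seq gave 0 of 6 called features as well, with 0% of 3750 genes called in either direction and 0 features by DESeq2 or at an unadjusted p under 0.05, a limit that 100 of the 3750 genes (2.67%) passed. Snhg11 had -0.47 ± 0.36 (SE), and the other 5 features lay between 0.03 and 0.25 (adjusted p = 0.99963 for each). With shared reads counted, Snhg11 had -0.24 and Meg3 turned to -0.30, and without WT replicate 5 Neat1 had 0.39, with none called. The genotype effect did not differ between the protocols beyond its error for any feature, with interaction estimates from -0.35 ± 0.44 for Miat to 0.55 ± 0.47 for Snhg11 and adjusted p-values of at least 0.868. An exact permutation test of RPM gave the tRNA-like end a log2 difference of 0.40 in PANDORA-seq (p = 0.228, n = 8 and 8) and 0.12 in traditional-seq (p = 0.823, n = 7 and 7).

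Of the 3 length classes tested (20 to 30, 31 to 42 and 43 to 45 nt), the longest had members called between the genotypes, as it had for nearly every gene. All 5 genes with enough reads were lower in AD on the RPM scale, and 93.2% of the 9939 genes tested in this class were called lower. Malat1 body reads of this class were at 91.0 ± 55.9 RPM in WT and 37.2 ± 28.6 RPM in AD libraries (log2 difference -1.54, adjusted exact permutation p = 0.0134). Snhg11 went from 10.6 ± 6.67 to 2.28 ± 1.41 RPM (-2.36, adjusted exact permutation p = 0.00139), Miat from 3.13 ± 1.55 to 0.953 ± 0.851 RPM (-1.94), Meg3 from 30.3 ± 20.5 to 8.64 ± 6.08 RPM (-1.90) and Neat1 from 3.89 ± 2.004 to 1.82 ± 1.86 RPM (-1.56). The median log2 difference of all genes was -2.06. Of the 8 AD libraries, 6 were below every WT library for Malat1, Neat1, Meg3 and Miat, and 7 for Snhg11. The same count over all genes of the class is not given here, so that it does not set the members apart. Reads of this class made up 11.2% to 21.5% of all reads in WT and 2.13% to 10.7% in AD libraries. As a share of the reads of the class, the members had log2 differences of 0.28 (Malat1), 0.25 (Neat1), -0.08 (Meg3), -0.14 (Miat) and -0.55 (Snhg11), none past the test. The tRNA-like end had only 11 reads of this length. In reads of 20 to 30 nt and of 31 to 42 nt no tested member was called in either protocol, with 0% of genes called lower in each; the tRNA-like end, Neat1 and Miat had too few traditional-seq reads of 31 to 42 nt to be tested.

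Other transcripts of the same kind were examined as lists. Of 50 other lncRNAs, 39 were tested in PANDORA-seq and 0 were called lower or higher in AD by edgeR or DESeq2. At an unadjusted p under 0.05 there were 10, of which 9 were higher; of all 16115 genes 1628 (10.1%) passed that limit, 1085 of them higher and 543 lower. The median log2 fold change of the list was 0.30, beside 0.02 for all genes. Its most read members were Gm26917 (1506 RPM in WT and 1220 RPM in AD, log2 fold change 0.13 ± 0.43 by TMM), 2900097C17Rik (145.5 and 93.1 RPM, -0.23 ± 0.19) and Snhg14 (76.6 and 62.6 RPM, 0.12 ± 0.23), so that for Gm26917 and Snhg14 the direction by RPM was the opposite of that by TMM. In traditional-seq 15 were tested and 0 called by edgeR or DESeq2, with 0 at an unadjusted p under 0.05 and a median of 0.02. Between the protocols, 33 of 37 were higher in PANDORA-seq by RPM, beside 96.3% of all genes, and their median log2 difference of 2.71 was below the 3.19 of all genes. The only lncRNA of the list called lower was Mirg, a microRNA host of the same imprinted region as Meg3 (3.15 RPM in PANDORA-seq and 6.57 RPM in traditional-seq, log2 difference -1.14, adjusted permutation p = 3.32e-05). The called lncRNAs with the highest ratios were Gm26917 (log2 difference 5.27), Mir9-3hg (4.27) and Jpx (4.24). Reads were matched to GENCODE transcripts only. Whether the reads counted for Gm26917 come from that gene or from a like sequence elsewhere in the genome was not tested.

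Of 33 mRNAs for proteins of speckles, paraspeckles and tRNA-like processing, 32 were tested in PANDORA-seq and 0 were called between the genotypes by edgeR or DESeq2, with 2 at an unadjusted p under 0.05, beside 10.1% of all genes, and a median of 0.06, beside 0.02. Srrm2, a core protein of speckles, was at 57.7 RPM in WT and 39.2 RPM in AD libraries (log2 fold change -0.17 ± 0.10 by TMM), and the splicing regulators Celf2 and Celf4 had -0.26 ± 0.18 and -0.24 ± 0.20. In traditional-seq 23 were tested and 0 called by either tool, with 1 at an unadjusted p under 0.05, beside 2.67% of all genes. Between the protocols 31 of 32 were higher in PANDORA-seq by RPM, again beside 96.3% of all genes and with a median log2 difference of 2.67 against 3.19, among them Elac2, the gene of RNase Z, at 1.40 RPM against 0.207 RPM, Pop1, a subunit of RNase P, at 0.578 RPM against 0.118 RPM, and the microRNA processing enzyme Drosha (log2 difference 3.57).

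Across the 16 PANDORA-seq libraries, with the mean of each genotype removed, the tRNA-like end had Pearson's r = -0.29 with the Malat1 body. Among the other members it had r = 0.58 with Neat1, -0.63 with Meg3, -0.62 with Snhg11 and -0.79 with Miat, whereas the Malat1 body had r = 0.88 with Meg3 and 0.84 with Snhg11. Of 9382 genes with at least 100 reads in a library on average, the closest to the Malat1 body were AC160336.1 (r = 0.98), Dleu2 (0.97) and Gm28268 (0.97), and the closest to the tRNA-like end were the 5S ribosomal RNA genes n-R5s109 (0.93) and n-R5s28 (0.92) and the microRNA gene Mir423 (0.90). These values describe 16 libraries that share their total reads as the denominator, and are given without a test.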

How the data were processed

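The deposited files gave each distinct read sequence of a library with its read count. The authors processed the reads with SPORTS at its default settings, except that 1 mismatch was allowed, and kept reads of 15 to 45 nt; mm39 is the genome build in the submitters' processing notes. For the values here, sequences of 20 to 45 nt were matched, without a mismatch, to GENCODE vM21 (GRCm38) transcripts with a purpose-written program, which found 2000 of 2000 simulated member fragments and 0 of 2000 that carried 1 mismatch. A Malat1 read was given to the tRNA-like end when at least 50% of its bases lay in it. The members and lists were chosen with earlier results of these data known, and the analyses of ends, of the bonds at ends and of following bases were chosen after the data were seen and are descriptions.

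Levels are RPM, scaled to all reads of a library (54926347 to 105876141 in PANDORA-seq, 9370669 to 17053412 in traditional-seq); counts of few reads carry counting error that their number sets. Counts of all genes were fitted with edgeR 4.0.16 (R 4.3.3; TMM, filterByExpr, quasi-likelihood test, Benjamini-Hochberg adjustment), and a gene was called with a fold over 2 and an adjusted p below 0.05. Genotypes were compared within each protocol. On simulated counts with 200 genes changed 4-fold, 191 were called in the PANDORA-seq comparison (5 false calls, 16106 genes) and 167 in the traditional-seq comparison (8 false calls, 4200 genes). The simulation gave every gene the same dispersion and held no outlier library. Its rates therefore do not give the power for the members or for smaller changes. Protocols, length classes and single values were tested as log2(RPM + 0.01) by permutation, with 100000 shuffles between protocols and all splits between genotypes; length classes needed a mean of at least 10 reads. Alternatives were DESeq2 1.42.0, the likelihood ratio test, other scalings and filters, other read lengths, shared reads, replicate blocks and each library left out. The genes named are the members; from each list up to 3 called genes with the smallest adjusted p in each direction, otherwise the 3 most read; and the 3 genes most correlated with the Malat1 body or its tRNA-like end. Mature microRNA sequences came from RefSeq (GRCm38.p6).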

Additional observations from a re-analysis of the deposited data

Results flagged for a closer look

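Of 28 groups of libraries that were checked, 6 held a library whose gap to its nearest neighbour was large for the range of its group. For independent groups of normally distributed values chance gives about 1 such group in 20. RPM and shares need not be so distributed, and all 6 flagged values were the highest of their group. The groups are also not independent, since a single library was flagged for several genes. AD replicate 7 of PANDORA-seq was the highest of its group in Malat1 (1904 RPM, next 924.0 RPM), Meg3 (480.2 RPM, next 248.0 RPM) and Snhg11 (124.0 RPM, next 63.4 RPM), while its tRNA-like end was at 0.995 RPM. WT replicate 8 of PANDORA-seq had 57.4 RPM of Neat1, with the next library at 35.7 RPM. WT replicate 5 of traditional-seq had 7.59 RPM of Neat1, from 90 reads, with the next library at 2.125 RPM. In WT replicate 3 of traditional-seq the tRNA-like end made up 5.19% of Malat1 reads, with the next library at 2.64%.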

How the results depend on the processing

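With TMM in place of RPM, 1 of the 6 features was called higher in PANDORA-seq in place of 5, also with the 14 file codes that both protocols share as a replicate block. The log2 differences by TMM were -1.96 for the tRNA-like end, -0.24 for Meg3, -0.55 for Miat and -0.73 for Snhg11, and with the block -2.45, -0.33, -0.46 and -0.74; the Malat1 body had 0.70 by TMM and 0.41 with the block (edgeR, adjusted p = 0.162); the cause was not tested. As a share of the reads of 43 to 45 nt, the log2 differences between AD and WT were 0.28 for Malat1, 0.25 for Neat1, -0.078 for Meg3, -0.14 for Miat and -0.55 for Snhg11, none past the test; this scaling takes out the difference in the class itself. In the edgeR and DESeq2 fits no member was called between the genotypes under any alternative run; the calls in reads of 43 to 45 nt were made on RPM. Scaling to all reads moved the median PANDORA-seq gene to -0.38 and scaling to matched reads to -0.19 (log2, AD over WT). The 1 gene called lower in PANDORA-seq became 14 lower and 10 higher with DESeq2, 14 and 8 with scaling to all reads, 9 and 1 with the likelihood ratio test, 9 lower with scaling to matched reads, 7 lower with the replicate block, 6 lower with a looser filter (a total of at least 10 reads), 0 with reads of 20 to 40 nt or with shared reads counted, and 192 lower and 303 higher with reads of 43 to 45 nt; leaving out a library gave 1 to 12 lower, the highest without AD replicate 6. In traditional-seq 0 to 2 genes were called. Replicate numbers did not pair the libraries: correlations of the deviations of equal numbers ran from -0.26 to 0.41 in PANDORA-seq and from -0.10 to 0.32 in traditional-seq, and the block gave 0.50 for Malat1 and 0.79 for the tRNA-like end in PANDORA-seq (edgeR, adjusted p = 0.563 and 0.535). Leaving out each library gave differences in the tRNA-like share of -1.82 to -1.45 percentage points. Reads that also occur elsewhere in the genome were not removed, since a genome sequence was not used here. With 2 to 31 reads a library, differences in the tRNA-like end in traditional-seq were poorly resolved.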
